A study of Mus musculus with 16 samples.

Results

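The genes described here encode the proteasome, the large protease complex that degrades ubiquitin-tagged proteins in the cytosol and nucleus. They were chosen by name: gene symbols that begin with Psma, Psmb, Psmc, Psmd, Psme or Psmg followed by a number, without pseudogenes, and with a mean of at least 1 TPM (TPM is transcript abundance per unit of gene length, as a share of its library). Of the 55487 rows of the deposited tables, 54 carried such a symbol. Of these, 5 were pseudogene symbols and 4 fell under the TPM minimum, which left 45 genes, and all 45 passed the filter on low counts. The choice was made because Psmd genes were higher in Cre livers than in GFP livers. The values and calls of that contrast are therefore given as a description, with no p-value printed and nothing read from them, and only the Flpo and GFP livers are compared by a test.

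RNA was sequenced from livers of mice fed a high-fat diet (HFD). All 16 libraries carry the genotype J1 J2 lf/lf on the C57/Bl6J strain, with the JNK kinases in 2 spliced forms as the subject of the series. The 6 Flpo livers are named for the 7b isoforms of JNK1 and JNK2 in hepatocytes, the 5 Cre livers for the 7a isoforms, and the 5 GFP livers are the controls. The labels used here give no age, sex, delivery vector, diet length or hour of harvest, and they leave it unsaid whether every library is a mouse of its own, so a p-value here speaks only of variation among these libraries, which may be technical. The recombinases act in hepatocytes by the series text, while the RNA is of whole liver and holds other cells too.

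The proteasome has a barrel-shaped 20S core of alpha and beta subunits, in which Psmb5, Psmb6 and Psmb7 carry the active sites, and a 19S regulatory particle that binds ubiquitin chains, removes them and threads the substrate inward with a ring of 6 ATPases (the Psmc genes). Interferon induces another set of catalytic subunits, Psmb8, Psmb9 and Psmb10, which replace Psmb5, Psmb6 and Psmb7 in the immunoproteasome, and the activator PA28, made of Psme1 and Psme2; both favour the production of peptides for MHC class I. Most standard subunit genes are known to be raised together by the transcription factor Nfe2l1 when proteasome capacity falls short, and Psmg proteins are chaperones that assemble the core.

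The classes were 7 alpha subunits and 7 constitutive beta subunits of the 20S core, 3 immunoproteasome subunits, 6 ATPases and 11 non-ATPase subunits of the 19S particle, 3 assembly chaperones of the 19S particle (Psmd5, Psmd9 and Psmd10), 4 assembly chaperones of the core (Psmg1 to Psmg4) and 4 activators (Psme1 to Psme4). Just inside the TPM minimum stood Psmd10 at a mean of 8.78 TPM. Just outside it stood Psma8 at 0.58 TPM, an alpha subunit of testis. Psmc3ip, which shares the name but is no proteasome subunit, had 0.38 TPM and Psme2b 0.19 TPM, and Psmb11, the beta subunit of thymus, was listed at 0 TPM.

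Upstream regions of 5 genes are printed. Psmb9 is the interferon-inducible gene with the lowest log2 fold change in Cre livers against GFP livers. Psmb8 is its inducible neighbour, which was not called. Psmd4, Psmd12 and Psmc6 are the 19S genes called higher there whose regions match the antioxidant or interferon-stimulated motif given below. Of the other 19S genes called higher, Psmc4 and Psmd2 hold no match, Psmc2 holds CCAAT alone and Psmd3 had no region matched. The printed 19S regions therefore do not stand for the called 19S genes as a set. Each printed region is the 250 bases before the RefSeq gene start, build GRCm38.p6, given 5′ to 3′ on the strand of the gene, in lower case. Capitals mark matches, on either strand, to TGACNNNGC (the antioxidant response element core through which Nfe2l1 and Nfe2l2 act), TGANTCA (AP-1), CCAAT or the core of the interferon-stimulated element (GAAA, then NN, then GAAA); the search for this last motif was added after expression values had been seen. The regions are chr17:34187331-34187580 on the minus strand, chr17:34197945-34198194 on the plus strand, chr3:95042615-95042864 on the minus strand, chr11:107479278-107479527 on the plus strand and chr14:45329574-45329823 on the plus strand.
Psmb9: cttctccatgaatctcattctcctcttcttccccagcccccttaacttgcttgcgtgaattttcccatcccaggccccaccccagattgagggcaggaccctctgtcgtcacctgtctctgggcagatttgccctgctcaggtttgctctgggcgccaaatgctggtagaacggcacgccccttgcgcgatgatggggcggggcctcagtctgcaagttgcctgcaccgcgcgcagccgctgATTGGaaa
Psmb8: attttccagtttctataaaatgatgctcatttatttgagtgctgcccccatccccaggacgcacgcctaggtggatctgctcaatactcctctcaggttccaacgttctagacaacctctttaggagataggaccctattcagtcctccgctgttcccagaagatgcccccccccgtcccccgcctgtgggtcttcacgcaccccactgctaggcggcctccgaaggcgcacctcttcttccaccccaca
Psmd4: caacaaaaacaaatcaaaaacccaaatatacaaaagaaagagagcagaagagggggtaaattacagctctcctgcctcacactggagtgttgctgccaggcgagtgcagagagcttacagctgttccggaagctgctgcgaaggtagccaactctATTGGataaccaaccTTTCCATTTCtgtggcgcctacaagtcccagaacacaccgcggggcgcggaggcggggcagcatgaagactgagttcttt
Psmd12: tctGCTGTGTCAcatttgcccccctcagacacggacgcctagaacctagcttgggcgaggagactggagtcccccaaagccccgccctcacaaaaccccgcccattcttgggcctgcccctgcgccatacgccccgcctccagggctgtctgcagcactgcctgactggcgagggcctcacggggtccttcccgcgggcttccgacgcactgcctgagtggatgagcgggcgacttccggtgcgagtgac
Psmc6: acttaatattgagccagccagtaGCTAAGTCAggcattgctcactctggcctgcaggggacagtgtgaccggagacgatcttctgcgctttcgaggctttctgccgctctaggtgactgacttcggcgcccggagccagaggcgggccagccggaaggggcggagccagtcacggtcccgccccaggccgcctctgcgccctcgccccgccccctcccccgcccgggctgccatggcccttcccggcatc
Every match printed reads on the strand opposite to the gene. The Psmb9 region holds a CCAAT match 8 to 4 bases before the start. It also runs over the annotated start of Tap1, the peptide transporter gene on the other strand, 223 bases from the RefSeq start of Psmb9. The Psmb8 region holds no match to these motifs. In the GENCODE annotation Psmb8 starts at 34197721 and Psmb9, on the minus strand, at 34187764, so both printed regions lie inside the annotated genes. They hold no bases before those annotated starts, so the lack of a match in Psmb8 says little about that sequence. The Psmd12 and Psmc6 regions also run past their GENCODE starts, at 107479484 and 45329788. In Psmd4 the CCAAT match lies 95 to 91 bases and the interferon-stimulated core 80 to 71 bases before the start. Psmd12 and Psmc6 hold the antioxidant core far out, 247 to 239 and 227 to 219 bases before their starts.

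RefSeq upstream windows were matched for 38 of the 45 genes. TGACNNNGC was found for 5 of the 38 (Psmb5, Psmb6, Psmc6, Psmd12 and Psmd9), and 10.2% of the 32851 windows of all genes hold it. TGANTCA was found for Psmd9 alone, against 6.75% of all windows. No match in the 38 genes shared bases with a match to another motif. CCAAT was found for 13 genes, 5 of them among the 7 alpha subunits, against 33.8% of all windows. The interferon-stimulated core was found for Psmb3, Psmd4 and Psmd9, against 2.98% of all windows. A match is a run of letters and not a measured binding site.

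The deposited counts summed to between 27929393 and 36043322 per library, with 17067 to 18257 genes above 0, and 13905 genes were tested. Albumin (Alb) stood at 32370 to 54710 TPM in every library, so the tissue is liver by its defining hepatocyte marker. Cre livers differed from the others in composition: the Mup genes, which encode the abundant major urinary proteins of hepatocytes, took 1.95 to 6.49% of counts in Flpo livers, 5.65 to 13.8% in Cre livers and 2.24 to 3.91% in GFP livers. A score of clock genes ran from 0.19 to 0.99 in Flpo livers, from -1.04 to 0.10 in Cre livers and from -0.57 to 0.51 in GFP livers. It averages centred and scaled log2 abundances, with Dbp, Tef, Nr1d1, Nr1d2, Per1, Per2, Per3 and Ciart as plus and Arntl, Npas2 and Clock as minus. The library numbers in the titles run in blocks by group, so group and batch cannot be told apart. Abundances by library are given below as CPM (counts scaled to library totals with TMM composition factors), and "called" means a Benjamini-Hochberg adjusted p under 0.05 in edgeR's quasi-likelihood test over all genes tested.

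Per unit length, transcripts of the core subunits were the most abundant and those of assembly chaperones the least. Averaged over the 16 libraries, the constitutive beta subunits ran from 96.0 TPM for Psmb1 to 207 TPM for Psmb6, and the alpha subunits from 31.0 TPM for Psma2 to 169 TPM for Psma7. The 19S ATPases ran from 46.7 TPM (Psmc6) to 99.6 TPM (Psmc1), and the non-ATPase subunits from 39.8 TPM for Psmd14, the deubiquitinase, to 117 TPM for Psmd4, a ubiquitin receptor. All 3 immunoproteasome subunits were expressed in these livers, with Psmb10 at 43.8 TPM, Psmb8 at 40.7 TPM and Psmb9 at 20.9 TPM. PA28 was as abundant as many standard subunits, with Psme1 at 111 TPM and Psme2 at 88.9 TPM, while the nuclear activators Psme3 and Psme4 stood at 25.6 and 18.7 TPM. The core chaperones ran from 16.5 TPM (Psmg2) to 31.5 TPM (Psmg4), and the 19S chaperones from 8.78 TPM (Psmd10) to 21.2 TPM (Psmd9). Subunits that occur in equal number in the particle thus differed in TPM, by 6.68-fold between the ends of the constitutive core. Psma2 stood alone at the low end, and the next core gene was Psma5 at 66.1 TPM. Psma2 averaged 61.6, 65.8 and 63.8 CPM in Flpo, Cre and GFP livers, and Psma5 51.9, 62.6 and 53.3 CPM. The order of these genes in TPM therefore depends on the gene lengths used, which are not known here.

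**Figure D1:**
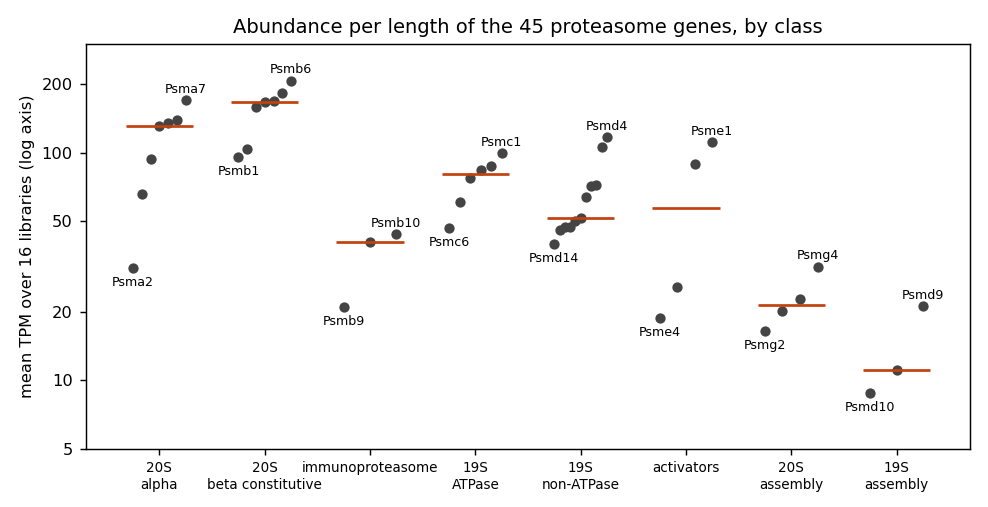
Mean TPM over the 16 libraries (y axis, log scale) of the 45 proteasome genes, grouped by class (x axis); each point is a gene, lines are class medians, and the highest and lowest gene of each class are named. The constitutive beta subunits had the highest class median, 167 TPM, and the 19S chaperones the lowest, 11.03 TPM.

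With TMM factors, most standard subunit genes, among them all 17 of the 19S particle, stood higher in Cre livers than in GFP livers, while interferon-inducible ones stood lower. Psmd genes were chosen because they were higher there, so the place of the 19S particle was partly set by the choice. Of the 45 genes, 8 were called higher and 4 lower in Cre livers against GFP livers, where 9.55% of all 13905 genes were called (3.97% higher and 5.58% lower); this is the contrast that chose the genes, so nothing is read from the count. The 8 were Psmd4, Psmc4, Psmc2, Psmb4, Psmd3, Psmd2, Psmd12 and Psmc6, with log2 fold changes of 0.28 to 0.47, and the 4 were Psmb9, Psmb10, Psme2 and Psme1, at -0.88 to -0.33. The log2 fold change was above 0 for 32 genes and below 0 for 13, with a median of 0.15 over the 45 beside 0.00 over all genes. Counted by library, 7 genes had every Cre liver above every GFP liver (Psmb4, Psmd2, Psmd11, Psmd12, Psmc6, Psmc2 and Psmc4) and 2 had every Cre liver below (Psmb9 and Psmb10), where 3.56% and 4.64% of all genes did. In whole liver, a change in the number of cells that express a gene and a change in its RNA per cell cannot be told apart.

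**Figure D2:**
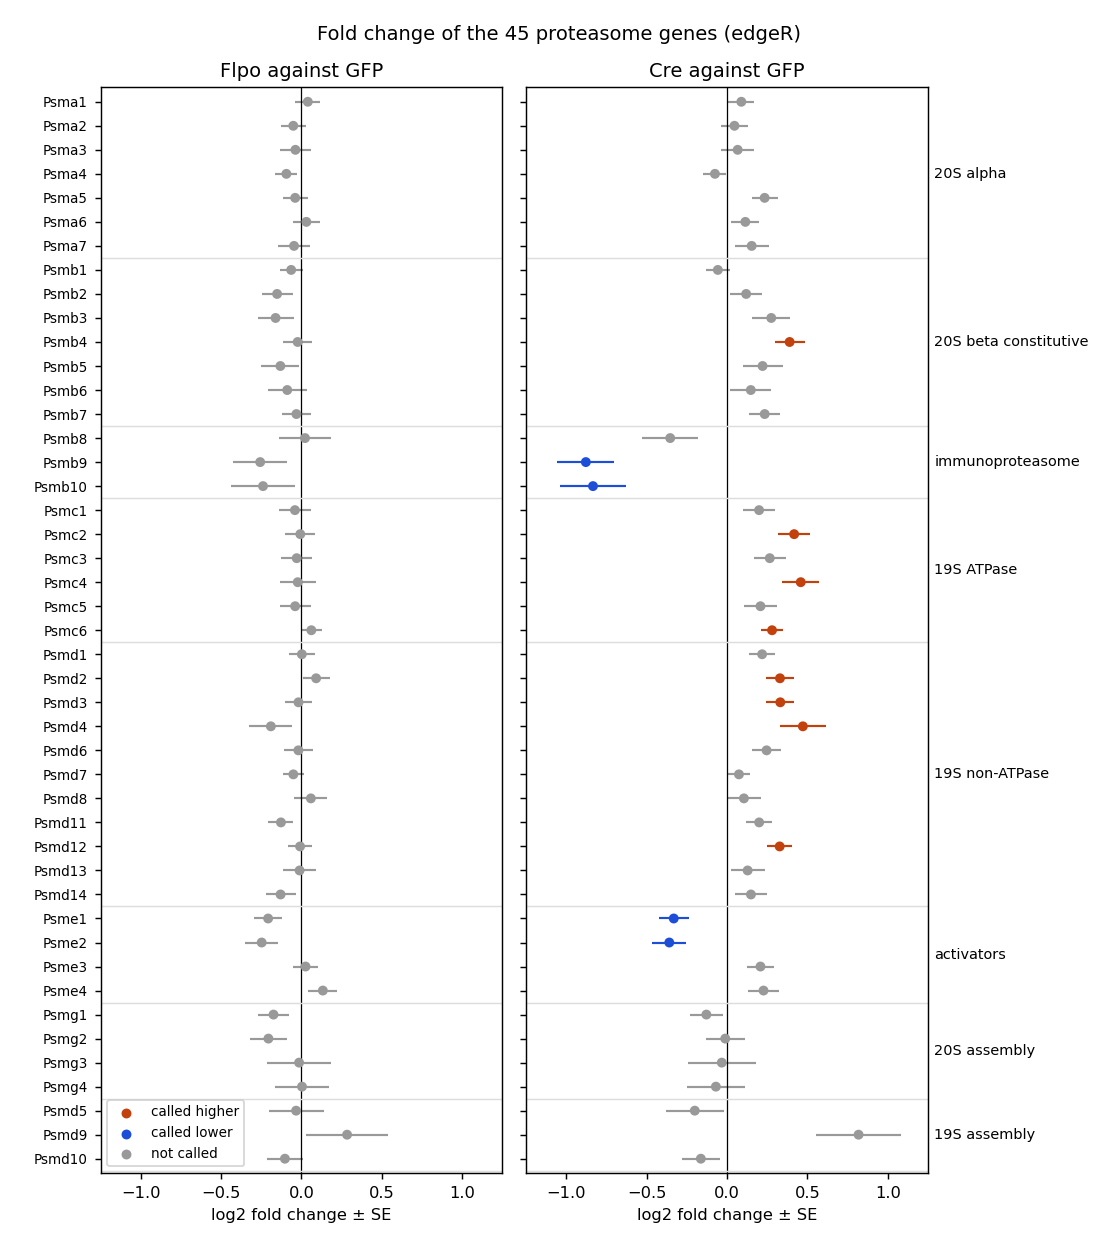
Log2 fold change with its standard error (x axis) of each proteasome gene (rows, by class), Flpo against GFP on the left and Cre against GFP on the right, from edgeR; orange points were called higher, blue lower, grey not called. On the right all 17 of the 19S subunits lie above 0 and the 3 immunoproteasome subunits below it, and on the left no gene was called.

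All 17 subunits of the 19S particle had a log2 fold change above 0 in Cre livers against GFP livers, with a median of 0.25 and a range of 0.07 to 0.47. Of the 17, 7 were called higher, where 3.97% of all genes were. Psmd4, a ubiquitin receptor of the particle, had 76.5 to 99.5 CPM in Flpo livers (median 87.5), then 119, 131, 128, 111 and 206 CPM in Cre livers and 87.9, 101, 118, 103 and 91.8 CPM in GFP livers. The Cre and GFP livers overlapped, since the lowest Cre liver lay under the highest GFP liver, and Cre replicate 5 stood far above the other Cre livers. The log2 fold change was 0.47 ± 0.14 (SE) with all libraries and 0.29 without Cre replicate 5, where Psmd4 was no longer called. The call of Psmd4 was also lost without Cre replicate 2 or 3 and without GFP replicate 1, 2, 4 or 5. Psmd3, a subunit of the lid, had 90.3 to 105 CPM in Flpo livers (median 98.9), 119, 119, 113, 128 and 149 CPM in Cre livers and 92.3, 92.9, 114, 102 and 97.5 CPM in GFP livers. A small overlap remained there, with GFP replicate 3 at the level of the lowest Cre liver, and the log2 fold change was 0.33 ± 0.09 (SE).

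Psmd2, the large scaffold of the base, had 151 to 186 CPM in Flpo livers (median 161), 183, 178, 184, 209.5 and 224 CPM in Cre livers and 149, 154, 167, 158 and 151 CPM in GFP livers. Every Cre liver lay above every GFP liver, but Flpo livers reached into the Cre range. Psmd12, a lid subunit, had 55.6 to 64.8 CPM in Flpo livers (median 61.6), 79.1, 70.1, 72.6, 76.4 and 89.9 CPM in Cre livers and 64.5, 56.2, 64.3, 62.3 and 62.2 CPM in GFP livers. For Psmd12 the Cre livers were above all livers of both other groups, and both genes had a log2 fold change of 0.33 in Cre livers against GFP livers.

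Among the ATPases, which form the unfolding ring, 3 of 6 were called higher, where 3.97% of all genes were. Their median log2 fold change was 0.27. Psmc4 had 70.1 to 86.6 CPM in Flpo livers (median 77.4), 103, 96.1, 92.1, 98.3 and 147 CPM in Cre livers and 68.4, 77.4, 90.0, 79.6 and 75.0 CPM in GFP livers. Psmc2 had 62.1 to 83.6 CPM in Flpo livers (median 73.5), 89.4, 95.5, 101, 93.5 and 113 CPM in Cre livers and 60.7, 74.6, 84.6, 72.8 and 75.7 CPM in GFP livers. Both separated the Cre livers from the rest, with log2 fold changes against GFP livers of 0.46 ± 0.12 for Psmc4 and 0.42 ± 0.10 for Psmc2 (SE). Psmc6 had 64.8 to 76.5 CPM in Flpo livers (median 72.7), 84.2, 76.8, 81.3, 86.4 and 84.6 CPM in Cre livers and 69.1, 66.8, 66.6, 69.0 and 69.1 CPM in GFP livers. The difference of Psmc6 was small, 0.28 ± 0.07 (SE) on the log2 scale, and its GFP livers varied least of all 45 genes, with a coefficient of variation of 1.94%. The 10 subunits of the 19S particle that were not called included Psmc3, at 0.27 ± 0.10 (SE), which was called between Flpo and Cre livers. It had 84.0 to 105 CPM in Flpo livers (median 95.3), 113, 115, 106, 106 and 146 CPM in Cre livers and 84.2, 98.3, 110.1, 95.4 and 99.3 CPM in GFP livers.

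The other 9 uncalled 19S subunits also lay above 0, closer to it. The lid and base subunits Psmd6, Psmd1 and Psmd11 stood at 0.25 ± 0.09, 0.22 ± 0.08 and 0.20 ± 0.08 and the ATPases Psmc5 and Psmc1 at 0.21 ± 0.10 and 0.20 ± 0.10 on the log2 scale (SE). Psmd11 had every Cre liver above every GFP liver, with 98.9 to 112 CPM in Cre livers against 87.8 to 95.7 CPM in GFP livers. Lowest of the particle were Psmd14 at 0.15 ± 0.10, Psmd13 at 0.13 ± 0.10, Psmd8 at 0.10 ± 0.11 and Psmd7, the partner of the deubiquitinase Psmd14, at 0.07 ± 0.07 (SE). Set against the core within each library, the mean TPM of the 17 subunits of the 19S particle was 0.488 to 0.571 times the mean TPM of the 14 constitutive core subunits in Flpo livers, 0.515 to 0.578 times in Cre livers and 0.481 to 0.524 times in GFP livers, so the groups overlapped.

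In the constitutive 20S core 12 of 14 subunits had a log2 fold change above 0 in Cre livers against GFP livers. Of the 14, 1, Psmb4, was called higher, where 3.97% of all genes were. The core median was 0.13 with TMM factors, but -0.01 with library totals and -0.06 on log2(TPM + 1), where Psmb4 was not called either. Psmb4, a beta subunit without an active site, had 104 to 127 CPM in Flpo livers (median 119.8), 157, 145, 154, 139 and 186 CPM in Cre livers and 104, 113, 139, 117 and 124 CPM in GFP livers. Its log2 fold change was 0.39 ± 0.09 (SE), and the lowest Cre liver and the highest GFP liver almost met. Psmb3, also without an active site, was called between Flpo and Cre livers alone: it had 59.1 to 76.8 CPM in Flpo livers (median 66.6), 88.0, 90.7, 88.5, 71.8 and 116 CPM in Cre livers and 65.4, 74.4, 91.1, 74.8 and 70.2 CPM in GFP livers. Psma4 and Psmb1 were the 2 core genes below 0, at -0.08 ± 0.07 and -0.06 ± 0.08 (SE).

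None of the 7 alpha subunits, which form the outer rings and the gate of the core, was called, where 9.55% of all genes were. Their median log2 fold change in Cre livers against GFP livers was 0.09. Psma5 led them at 0.23 ± 0.08, with 58.5 to 68.7 CPM in Cre livers against 48.3 to 59.2 CPM in GFP livers, followed by Psma7 at 0.15 ± 0.11 and Psma6 at 0.11 ± 0.09 (SE). Psma1, Psma3 and Psma2 stood at 0.09 ± 0.08, 0.07 ± 0.10 and 0.05 ± 0.08 (SE), each within its own error of 0 or close to it. The remaining beta subunit, Psmb2, stood at 0.12 ± 0.10 (SE).

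The 3 constitutive catalytic subunits were not called in Cre livers against GFP livers. Psmb5, the chymotrypsin-like subunit, had 67.9 to 93.4 CPM in Flpo livers (median 84.5), 98.1, 101, 101, 84.2 and 136 CPM in Cre livers and 76.7, 84.5, 109, 90.7 and 85.5 CPM in GFP livers. Psmb6, the caspase-like subunit, had 68.0 to 101 CPM in Flpo livers (median 86.9), 105, 107, 102, 71.8 and 113 CPM in Cre livers and 77.6, 82.7, 107, 88.0 and 94.9 CPM in GFP livers. Psmb7, the trypsin-like subunit, had 106 to 125 CPM in Flpo livers (median 112), 135, 135, 137, 119 and 164 CPM in Cre livers and 107, 109.7, 141, 119.6 and 110.1 CPM in GFP livers. In all 3 genes the Cre and GFP livers overlapped, and the log2 fold changes were 0.22 ± 0.12, 0.15 ± 0.13 and 0.23 ± 0.10 (SE).

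The interferon-inducible subunits that take the place of these catalytic subunits stood on the other side. Psmb9 had 14.9 to 23.3 CPM in Flpo livers (median 19.9), 7.87, 17.8, 10.3, 14.1 and 13.9 CPM in Cre livers and 22.8, 27.5, 23.6, 21.2 and 22.4 CPM in GFP livers. Psmb10 had 21.9 to 32.1 CPM in Flpo livers (median 26.9), 24.3, 22.9, 20.9, 11.3 and 9.97 CPM in Cre livers and 27.0, 34.6, 32.9, 27.7 and 37.3 CPM in GFP livers. In both genes every Cre liver lay below every GFP liver. The log2 fold changes in Cre livers against GFP livers were -0.88 ± 0.18 for Psmb9 and -0.84 ± 0.21 for Psmb10 (SE), or 0.54-fold and 0.56-fold. Psmb8 had 22.6 to 38.1 CPM in Flpo livers (median 29.3), 22.2, 30.3, 24.95, 21.4 and 15.1 CPM in Cre livers and 23.5, 28.6, 32.7, 28.9 and 32.1 CPM in GFP livers. Psmb8 was not called, its Cre and GFP livers overlapped and its log2 fold change was -0.35 ± 0.17 (SE); on log2(TPM + 1) Psmb8 was called lower, at -0.55. The lowest liver was not the same for each gene: Cre replicate 1 was lowest for Psmb9 but highest of the Cre livers for Psmb10, and Cre replicate 5 was lowest for Psmb8 and Psmb10.

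**Figure D3:**
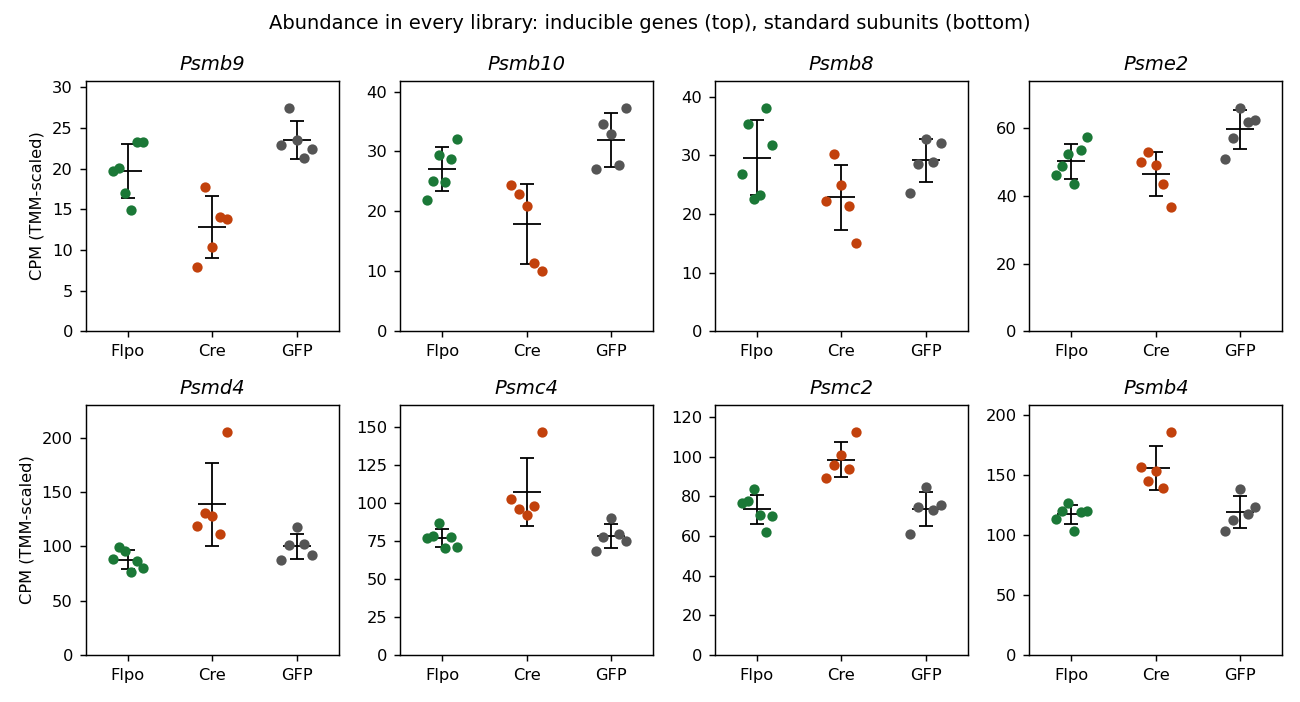
CPM with TMM factors (y axis, from 0) in every library of 4 interferon-inducible genes (top) and 4 standard subunits (bottom) in Flpo, Cre and GFP livers; points are libraries, bars the mean and SD. The Cre livers lie below every GFP liver for Psmb9 and Psmb10 and above every GFP liver for Psmc4, Psmc2 and Psmb4, and Cre replicate 5 stands alone for Psmd4 at 206 CPM and Psmc4 at 147 CPM.

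Because an inducible subunit competes with its constitutive counterpart for the same place in the core, the inducible share of each pair was computed from TPM within each library, which no scaling between libraries can alter. Psmb9 made up 10.1 ± 1.74% of the summed TPM of Psmb9 and Psmb6 in Flpo livers, 5.93 ± 2.07% in Cre livers and 11.3 ± 1.75% in GFP livers (SD, n = 6, 5 and 5). By library the Cre livers had 3.48, 7.39, 4.63, 8.61 and 5.54%, all below the lowest GFP liver at 9.54%. Psmb10 made up 23.4 ± 2.46% of Psmb10 and Psmb7 in Flpo livers, 14.4 ± 5.01% in Cre livers and 26.1 ± 3.40% in GFP livers (SD). Its Cre livers had 18.97, 18.03, 16.5, 10.98 and 7.32%, again all below the lowest GFP liver, at 23.1%. Psmb8 made up 22.5 ± 3.62% of Psmb8 and Psmb5 in Flpo livers, 15.3 ± 4.23% in Cre livers and 20.8 ± 1.51% in GFP livers (SD), and the highest Cre liver, 19.35%, just passed the lowest GFP liver, 19.34%.

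**Figure D4:**
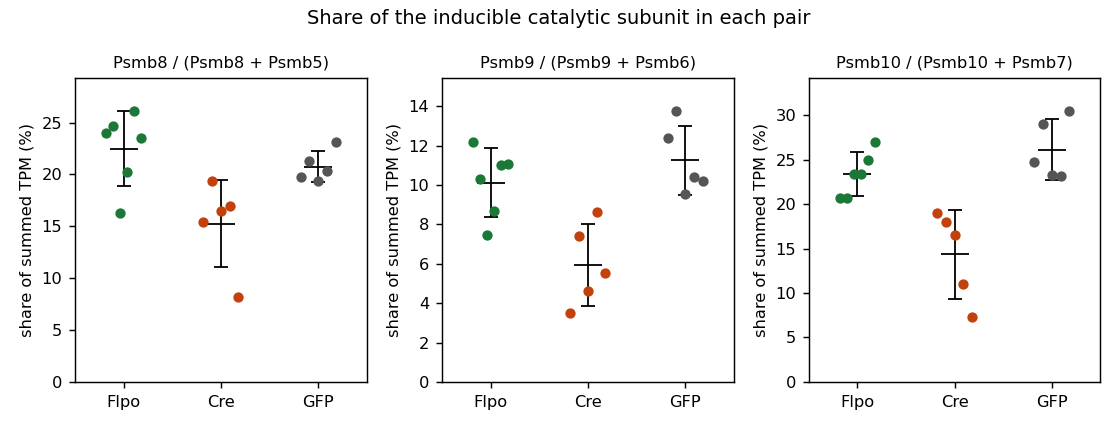
Share of the inducible subunit in the summed TPM of each catalytic pair (y axis, %, from 0) in Flpo, Cre and GFP livers; points are libraries, bars the mean and SD. Cre livers lie below all GFP livers for Psmb9 (3.48 to 8.61% in Cre livers, 9.54 to 13.8% in GFP livers) and for Psmb10 (7.32 to 18.97% in Cre livers, 23.1 to 30.5% in GFP livers).

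Both genes of PA28, the other interferon-inducible part, were called lower in Cre livers against GFP livers, where 5.58% of all genes were. Their calls turned on single libraries. Psme1 had 65.0 to 83.4 CPM in Flpo livers (median 79.4), 65.5, 81.8, 78.7, 65.4 and 63.2 CPM in Cre livers and 80.6, 91.1, 90.1, 95.0 and 89.7 CPM in GFP livers. Psme2 had 43.5 to 57.5 CPM in Flpo livers (median 50.6), 50.1, 53.0, 49.1, 43.6 and 36.7 CPM in Cre livers and 50.9, 57.2, 66.0, 61.8 and 62.4 CPM in GFP livers. In each gene the highest Cre liver just passed the lowest GFP liver, and the log2 fold changes were -0.33 ± 0.09 and -0.36 ± 0.11 (SE). Psme1 was no longer called without Cre replicate 1, 4 or 5 or GFP replicate 2, 3, 4 or 5, with -0.33 to -0.29 in those fits. Psme2 was no longer called without Cre replicate 3, 4 or 5, GFP replicate 2, 3, 4 or 5, or Flpo replicate 1, 2, 3 or 5, with -0.38 to -0.29. Neither was called with Cre and GFP livers alone in the fit. The other activators lay on the side of the standard subunits and were not called, with Psme3 at 0.21 ± 0.08 and Psme4 at 0.23 ± 0.10 (SE). As a share of the summed TPM of all 45 genes, PA28 took 5.35 to 6.30% in Flpo livers, 3.39 to 5.49% in Cre livers and 6.15 to 6.84% in GFP livers, and the immunoproteasome subunits took 2.82 to 3.95% in Flpo livers, 1.22 to 2.76% in Cre livers and 3.24 to 3.95% in GFP livers. The Cre livers were below all GFP livers in both shares.

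None of the 7 assembly chaperones was called in Cre livers against GFP livers, where 9.55% of all genes were. The 4 core chaperones had a median log2 fold change of -0.05, with Psmg1 at -0.13 ± 0.10, Psmg4 at -0.07 ± 0.18, Psmg3 at -0.03 ± 0.21 and Psmg2 at -0.01 ± 0.12 (SE). Psmg1 had 12.4 to 16.5 CPM in Flpo livers (median 14.1), 15.02, 14.4, 13.6, 15.3 and 15.3 CPM in Cre livers and 17.0, 16.1, 16.3, 13.6 and 17.4 CPM in GFP livers, so the groups overlapped throughout. Of the 19S chaperones, Psmd5 and Psmd10 stood at -0.20 ± 0.18 and -0.16 ± 0.12 (SE), and Psmd9 at 0.82 ± 0.27 (SE), the highest value of the 45, also not called. Psmd9 varied most of the 45 genes among Cre livers, with a coefficient of variation of 53.4% and 30.4 to 96.1 CPM in Cre livers against 22.4 to 36.5 CPM in GFP livers, the highest again in Cre replicate 5.

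How far the standard subunits stood above GFP livers depended on how libraries were scaled. With library totals in place of TMM factors the median of all genes moved to -0.14 and that of the 45 genes to 0.00. With library totals that leave out the Mup genes they were -0.05 and 0.09, and on log2(TPM + 1) they were -0.12 and -0.04. The 19S subunits stayed above the median of all genes by 0.24 with TMM factors, 0.24 with library totals and 0.17 on log2(TPM + 1), while their own medians were 0.25, 0.10 and 0.05. On log2(TPM + 1) none of the 45 genes was called higher in Cre livers, where 216 of all genes were. With library totals 1 of the 45 was, where 300 of all genes were. The immunoproteasome subunits kept medians of -0.84, -0.98 and -1.05 under the same 3 scalings. Without Cre replicate 5 the 19S median was 0.17 and 7 of the 45 genes were called, where 1114 of all genes were. Psmd2, Psmd3, Psmd4, Psme1 and Psme2 were the 5 no longer called. The same 5 were lost without GFP replicate 5, where 960 of all genes were called, and Psmd3 also without GFP replicate 2. With the clock score as a covariate 1 gene, Psmb9, was called, where 312 of all genes were. With Cre and GFP livers alone in the fit 6 were called, where 834 of all genes were.

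**Figure D5:**
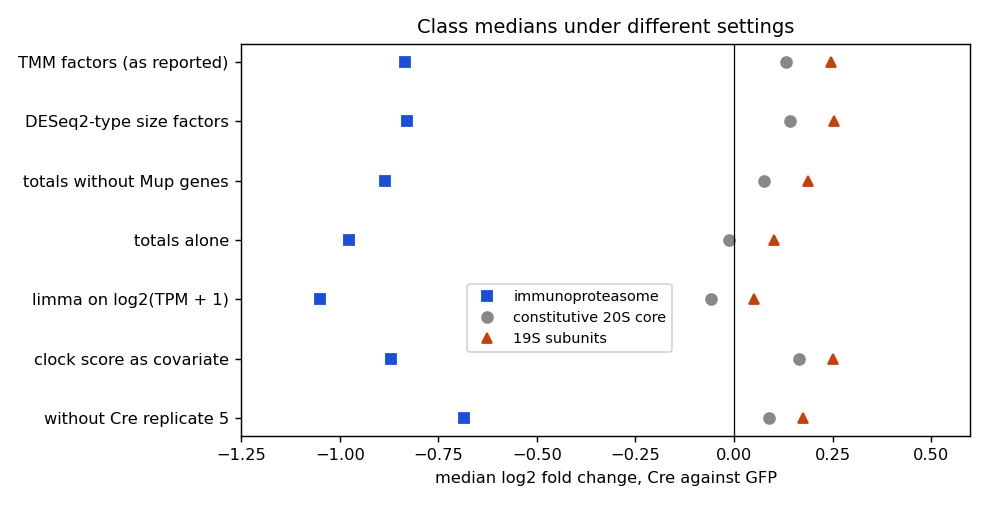
Median log2 fold change in Cre against GFP livers (x axis) of the immunoproteasome subunits, the constitutive 20S core and the 19S subunits under 7 ways of scaling, fitting or leaving out libraries (rows). The 19S median moves between 0.05 and 0.25 and the immunoproteasome median between -1.05 and -0.68.

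In some livers most of the 45 genes stood on the same side of their group mean. In Cre replicate 5, GFP replicate 3 and Flpo replicate 3, 38, 37 and 40 of the 45 genes stood above the mean of their own group, while in Flpo replicate 4 only 8 did; over all tested genes that share was 49.2 to 51.6% in each library. The summed CPM of the 19S subunits was 1351 to 1548 in Flpo livers, 1640 to 2122 in Cre livers and 1368 to 1584 in GFP livers, and without Cre replicate 5 the Cre livers still ended at 1682. The median coefficient of variation over the 45 genes was 8.84% among Flpo livers, 12.2% among Cre livers and 9.75% among GFP livers, and 3, 9 and 2 genes passed 20% in these groups.

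In Flpo livers no proteasome gene passed the test against GFP livers. In edgeR's test 0 of the 45 genes were called, where 0.0288% of all genes were (4 of 13905, all lower), and 2 of the 45 had an unadjusted p under 0.05, where 9.73% of all genes did. Those were Psme2, whose log2 fold change was -0.25 ± 0.10 (SE, adjusted p = 0.442), and Psme1, at -0.21 ± 0.09 (SE, adjusted p = 0.465), both in edgeR. Psmg1 came next, at -0.17 ± 0.10 (SE, adjusted p = 0.582 in edgeR). None of the 45 separated all Flpo from all GFP livers, where 0.676% of all genes did so upward and 0.870% downward. Log2 fold changes ran from -0.26 for Psmb9 to 0.28 for Psmd9, with 11 above 0 and 34 below and a median of -0.04 beside -0.01 over all genes. That balance depended on GFP replicate 3, without which 25 of the 45 were above 0 and the median was 0.0057. With all libraries the standard errors of the log2 fold changes were 0.06 to 0.25, so differences of that order were not detectable with these libraries. The contrast shares the GFP libraries with the one that chose the genes.

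By class, the medians in Flpo against GFP livers were -0.02 for the 19S subunits, -0.05 for the constitutive core and -0.24 for the immunoproteasome, none with a called gene. The inducible ratios were tested with two-sided exact permutation tests over libraries, whose smallest possible p here was 0.00433. The log2 ratio of Psmb9 to Psmb6 differed by -0.18 (exact permutation p = 0.312), that of Psmb10 to Psmb7 by -0.21 (exact permutation p = 0.165) and that of Psmb8 to Psmb5 by 0.13 (exact permutation p = 0.403), each with an adjusted p of 0.403 over the 3 pairs (n = 6 Flpo and 5 GFP livers). These differences were of the order of the SD of the log2 ratios between livers, which was 0.20 to 0.32 in Flpo livers and 0.13 to 0.25 in GFP livers.

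Set directly against Cre livers, Flpo livers had 11 proteasome genes called lower and 1 called higher, where 13.7% of all genes were called (7.45% higher and 6.26% lower). On log2(TPM + 1) the balance turned round, with 1 called lower, Psmd4, and 5 called higher, Psmb8, Psmb9, Psmb10, Psme1 and Psme2, where 2417 of all genes were called higher and 326 lower. With the clock score as a covariate none of the 45 was called, but only 18 of the 13905 genes tested were. The score ran from 0.19 to 0.99 in Flpo livers and from -1.04 to 0.10 in Cre livers, without overlap, so this fit cannot tell score and group apart. In that fit 8 of the 45 log2 fold changes were above 0, beside 9 as reported. This contrast uses the same Cre libraries that chose the genes and is given without p-values. The 11 were Psmc2, Psmc3, Psmc4, Psmc6, Psmd3, Psmd4, Psmd11, Psmd12, Psma5, Psmb3 and Psmb4, with Psmd4 lowest at -0.66 ± 0.13 (SE), and the 1 was Psmb9, at 0.62 ± 0.17 (SE). Psmb10 at 0.60 ± 0.20 and Psmb8 at 0.38 ± 0.17 (SE) lay on the same side and were not called. The call of Psmb9 was lost without Cre replicate 3 or Flpo replicate 5 or 6, that of Psma5 without Cre replicate 5, and that of Psmc6 without Cre replicate 4 or 5 or Flpo replicate 5 or 6. Psmc3 lost its call without GFP replicate 5, Cre replicate 1, 2 or 5, or Flpo replicate 4, 5 or 6. The median over the 45 genes was -0.20, or 0.02 on log2(TPM + 1), and 10 genes had every Flpo liver below every Cre liver, where 3.32% of all genes did, while 0 had every Flpo liver above, where 4.52% did.

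Of 27 tested partners and ubiquitin suppliers, 4 were called higher and 0 lower in Cre livers against GFP livers, where 3.97% and 5.58% of all genes were, with a list median of 0.13 beside 0.00 over all genes. They were Adrm1, a ubiquitin receptor bound to Psmd1 in the particle, at 0.41 ± 0.08, Ufd1 and Nploc4, the cofactors of the segregase Vcp, at 0.37 ± 0.09 and 0.34 ± 0.08, and Ubqln1, a shuttle of ubiquitinated proteins, at 0.31 ± 0.08 on the log2 scale (SE). Adrm1 averaged 82.7 ± 7.80 CPM in Flpo livers, 103 ± 6.44 CPM in Cre livers and 77.4 ± 6.38 CPM in GFP livers (SD). Sem1, a small 19S subunit outside the naming rule, and Pomp, the chaperone of core maturation, were not called, at -0.20 ± 0.12 and -0.25 ± 0.14 (SE). In Flpo livers against GFP livers 0 of the 27 were called in edgeR, where 0.0288% of all genes were. An unadjusted p under 0.05 was found for 2 of the 27, where 9.73% of all genes had one.

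Among 7 tested genes of transcriptional control, 1 was called higher in Cre livers against GFP livers, where 3.97% of all genes were. It was Ddi2, the protease that cuts and releases Nfe2l1, at 0.41 ± 0.10 (SE). Ddi2 averaged 244 ± 29.8 CPM in Flpo livers, 319 ± 23.0 CPM in Cre livers and 239.8 ± 23.6 CPM in GFP livers (SD). The transcript of Nfe2l1 itself was not called, at -0.17 ± 0.12 (SE), with 164 ± 7.82 CPM in Flpo livers, 132 ± 26.1 CPM in Cre livers and 149 ± 22.8 CPM in GFP livers (SD). Processing of the Nfe2l1 protein is not seen in RNA, and the list median was -0.06.

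Of 18 tested genes of antigen presentation and the interferon gamma response, 1 was called lower in Cre livers against GFP livers, where 5.58% of all genes were, Tapbpl, a peptide editor of MHC class I, at -0.45 ± 0.12 (SE), and 16 of 18 log2 fold changes were below 0, with a median of -0.27 beside 0.00 over all genes. Nlrc5, the transactivator of MHC class I genes, stood at -0.69 ± 0.24 and H2-K1, an MHC class I heavy chain, at -0.27 ± 0.09 (SE), neither called. Tap1, whose start faces that of Psmb9 in the region printed above, stood at -0.07 ± 0.19 (SE), with 28.9 ± 6.17 CPM in Flpo livers, 32.8 ± 7.68 CPM in Cre livers and 34.4 ± 6.87 CPM in GFP livers (SD). The transcription factor Irf1 stood at -0.04 ± 0.18 and B2m, the light chain of MHC class I, at 0.01 ± 0.09 (SE). In Flpo livers against GFP livers 0 of the 18 were called, where 0.0288% of all genes were.

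Immune cells express much immunoproteasome. Averaged over the 16 libraries, lymphocyte markers ran from 0.13 TPM (Ms4a1) to 1.54 TPM (Nkg7) and macrophage markers from 1.42 TPM (Timd4) to 33.6 TPM (Clec4f). The 10 lymphocyte markers summed to 6.49 to 12.9 CPM in Flpo livers, 9.26 to 14.7 CPM in Cre livers and 5.04 to 11.3 CPM in GFP livers. Of the 10, 1, Cd4, was called higher in Cre livers, where 3.97% of all genes were. The 6 macrophage markers summed to 50.4 to 138 CPM in Flpo livers, 63.9 to 104 CPM in Cre livers and 62.0 to 105 CPM in GFP livers, with 0 of 6 called. Of 4 neutrophil markers 1 was tested and not called, and Ly6g and Retnlg were listed at 0 TPM in some libraries. Of 6 stellate cell markers, 4 (Col1a1, Col1a2, Col3a1 and Lrat) were called lower in Cre livers against GFP livers, where 5.58% of all genes were. The list summed to 151 to 256 CPM in Flpo livers, 83.1 to 155 CPM in Cre livers and 144 to 232 CPM in GFP livers. Endothelial markers had 1 of 4 called higher in Cre livers, where 3.97% of all genes were, and cholangiocyte markers 0 of 4. The part of these cell types in the proteasome values was not tested.

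The 45 genes lie on 16 chromosomes (GENCODE annotation of GRCm38, the mm10 build). Psmb8 (chr17:34197721-34201454, plus strand) and Psmb9 (chr17:34181987-34187764, minus strand) sit with Tap1 and Tap2 in the MHC region, Psmb10 lies at chr8:105935735-105938444, and Psme1 and Psme2 are 5911 bases apart on chromosome 14. In 13 genes annotated exons share bases with another gene, among them Psmb9 with Tap1 on the opposite strand (their gene spans overlap by 212 bases), Psme1 with Emc9, Psmd3 with Gm12356, Psmc3 with Slc39a13, Psmb7 with Nek6, Psmb5 with Mir686, Psmd9 with Gm26745 and Psmb8 with Gm20496. The use of strand in the authors' counting is not given in the sources used here, so reads from such overlaps cannot be told apart and these genes are uncertain to that extent. Psmb10, Psme2, Psmd4, Psmd12, Psmd2, Psmc2, Psmc4, Psmc6 and Psmb4 share no annotated exon bases with another gene.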

How the data were processed

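For the 16 libraries, 2 tables deposited by the authors were used, of estimated counts and of TPM by gene. Trimming was done with cutadapt and alignment with STAR on mm10, per the submitters' processing notes, versions unstated. The sources used here do not say how reads were counted, with which annotation or whether by strand. Non-whole values made up 31.7% of the deposited estimated counts. Groups and replicate numbers were read from the titles, and no column was left unused. Members and gene lists were chosen with earlier results of these data known.

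Estimated counts were rounded and tested with edgeR 4.0.16 (R 4.3.3): filterByExpr with a minimum count of 10, which left 13905 genes, TMM factors, 1 robust quasi-likelihood fit of all 16 libraries with 3 contrasts, and Benjamini-Hochberg adjustment over all genes tested. Standard errors come from each fold change divided by the root of its F statistic. The script was tested on simulated data. CPM values use the TMM factors. Ratios of TPM were compared with exact permutation tests (scipy 1.17.1). Library totals of 27929393 to 36043322 set the counting precision, and no 2 libraries were near-identical, with correlations of 0.940 to 0.978 between libraries.

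Values by library are given for the Psmd genes called in Cre against GFP livers, Psmb5 to Psmb10, Psme1, Psme2, the 3 genes with the smallest p in Flpo against GFP livers, and up to 6 other called genes by fold change. Psma5, Psmd9 and Psmd11 fall outside that rule and are named for their values. Alternatives were other scalings, filters, tools (DESeq2 1.42.0, limma 3.58.1), thresholds, member rules, a replicate block, a clock-gene covariate, the 2 groups alone, and each library left out. A withheld item is not reported here.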

Additional observations from a re-analysis of the deposited data

Results flagged for a closer look

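In 75 groups of 5 or 6 libraries examined (the CPM of the genes given by library, class sums and shares), 6 held a library set apart from the others. Its gap to the nearest library, as a share of the range of the group, was above Dixon's critical value of 0.71 for 5 libraries. Chance alone sets apart about 1 group in 20, but the groups are not independent, since sums and shares hold genes also examined alone. Cre replicate 5 was the library set apart in 4 of the 6, and the 19S sum among these includes the flagged genes. It had 206 CPM of Psmd4, where the other Cre livers had 111 to 131 CPM, 147 CPM of Psmc4, where they had 92.1 to 103 CPM, 146 CPM of Psmc3, where they had 106 to 115 CPM, and a 19S sum of 2122 CPM, where they had 1640 to 1682 CPM. Cre replicate 4 was low in Psmb6, a catalytic subunit, with 71.8 CPM beside 102 to 113 CPM in the other Cre livers. GFP replicate 2 was low in Psmd12, with 56.2 CPM beside 62.2 to 64.5 CPM in the other GFP livers.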

How the results depend on the processing

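The genes called in Cre against GFP livers, 12 as reported, numbered 6 with library totals alone, 7 on log2(TPM + 1), 7 on log2(TPM + 0.1), 6 with only the 2 groups in the fit, 1 with the clock score as a covariate and 1 at an adjusted p under 0.01, and 7 to 12 with each library left out, 7 without GFP replicate 5 or without Cre replicate 5. Of the 12, 5 were among those called with library totals and 4, all lower in Cre livers, among the 7 on log2(TPM + 1), which were all lower. Over all genes the calls were 1328 as reported and 1956, 2104, 834 and 312 with library totals, log2(TPM + 1), the 2 groups and the clock score, with 300, 216, 357 and 98 of them higher in Cre livers, against 552 as reported. All-gene calls were 2172 on log2(TPM + 0.1), 475 at an adjusted p under 0.01 and 960 to 1462 with each library left out. The median over the 45 genes was 0.15 as reported, 0.0034 with library totals, -0.040 on log2(TPM + 1) and -0.040 on log2(TPM + 0.1). The calls of Flpo against Cre livers, 12 as reported, numbered 7, 6 and 6 on these scalings, of which 5, 2 and 2 were among the 12, 19 with DESeq2, 0 with the clock score and 7 at an adjusted p under 0.01, and 9 to 16 with each library left out, and the median of -0.20 became -0.062, 0.017 and 0.017. Flpo against GFP livers gave 0 called genes under every alternative, edgeR, DESeq2 and limma included, with 2 at an unadjusted p under 0.05 as reported. Over all genes, the Flpo against Cre calls were 1906 as reported, 2264 with library totals, 2743 on log2(TPM + 1) and 2803 on log2(TPM + 0.1). They were 2367 with DESeq2, 18 with the clock score, 881 at an adjusted p under 0.01 and 1352 with the replicate block. With each library left out they were 1454 to 2189. The cause of these changes was not tested. Over the 28 alternatives that refit single genes, the 12 genes of Cre against GFP livers were called in 28 (Psmb9, log2 fold change -1.11 to -0.74), 26 (Psmb10, not with the 2 groups alone or the clock score), 25 (Psmc2), 24 (Psmb4 and Psmd12), 23 (Psmc4), 22 (Psmc6), 20 (Psmd2 and Psmd3), 18 (Psme1) and 13 (Psmd4 and Psme2). That contrast chose the genes, so these counts are no independent support. Over the 500 most variable genes, deviations from the group mean had correlations of -0.166 to 0.144 between same-numbered libraries of the 3 groups. Pairs of unlike number were not compared, so whether the numbers mark shared handling cannot be told. With the replicate block, without Flpo replicate 6, 9 genes were called in Cre against GFP livers, where 1019 of all genes were. In that fit 9 were called in Flpo against Cre livers, where 1352 of all genes were, and 0 in Flpo against GFP livers, where 0 of all genes were. The small number of livers limits what could be detected.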
